A study of Mus musculus with 4 samples.

Results

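The mitochondrial genome of mouse cells was followed through its 37 annotated genes, taken as every gene of the deposited count tables whose exons lie on the mitochondrial chromosome alone, out of 50600 genes. They are 13 messages, 2 ribosomal RNAs (rRNAs) and 22 transfer RNAs (tRNAs). On the annotated map 28 of them lie on the plus strand, including 12 messages, 14 tRNAs and both rRNAs. The other 9, mt-Nd6 and 8 tRNAs, lie on the minus strand. RNA had been sequenced in 4 libraries of primary cells labelled regulatory T cell, the Foxp3-expressing CD4 T cells that restrain immune responses, from mice of the C57BL/6NJ strain with age unknown and sex not collected. The libraries are biological replicates 1 to 4 of 1 group. They come from separate biosamples under 1 donor record, with no treatment given in the sample labels, while the names of the count columns hold the text activated and a mark of 00h. The assay and molecule labels say total RNA, the cited library protocol is titled for poly(A)+ RNA, and the labels also point to a CD4 T cell differentiation protocol.

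Mitochondrial DNA is read from promoters on both strands into long precursors that hold many genes. The tRNAs stand between most of the messages and rRNAs, and their excision by RNase P and the enzyme Elac2 frees the neighbouring RNAs. The messages code for core subunits of respiratory complexes I, III and IV and of the ATP synthase (complex V), and all other subunits of these complexes and all of complex II are coded in the nucleus. Stretches of mitochondrial DNA have also been inserted into nuclear chromosomes during evolution, and such nuclear copies can be nearly identical to their source.

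A copy of this kind bears on which mitochondrial genes can be read from these tables, so its sequence is shown first. Per the file headers, fragments with several alignments or lying over several genes were left out of the counts, so a fragment that fits a mitochondrial gene and its nuclear copy equally well is in neither row. On build mm10, 7 annotated pseudogenes on the minus strand of chromosome 1, between positions 24611535 and 24616197, follow the same order as 4662 bases of the mitochondrial map, positions 6381 to 11042. That stretch is 30.2% of the length spanned by the mitochondrial genes. Gm28661 matched the first 681 bases of mt-Co2 (subunit 2 of complex IV) at every base, Gm10925 all 678 compared bases of mt-Atp6 (complex V), Gm28437 all 783 compared bases of mt-Co3 (complex IV) and Gm10222 all 294 compared bases of mt-Nd4l (complex I). Gm28439 matched the first 876 bases of mt-Nd4 (complex I), which are 63.6% of that gene, at every base. The 2 remaining copies differ from their source, and the stretches that hold the differences are shown in GENCODE M21 transcript sequence (build mm10) read 5′ to 3′. They are chrM:9459-9518 on the plus strand with chr1:24613060-24613119 on the minus strand, and chrM:6381-6440 on the plus strand with chr1:24616138-24616197 on the minus strand. Capitals mark the bases that differ.
mt-Nd3: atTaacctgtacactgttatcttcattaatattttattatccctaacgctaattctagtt
Gm28438: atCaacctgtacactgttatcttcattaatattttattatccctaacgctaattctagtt
mt-Co1: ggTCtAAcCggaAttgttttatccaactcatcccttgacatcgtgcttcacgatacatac
Gm29216: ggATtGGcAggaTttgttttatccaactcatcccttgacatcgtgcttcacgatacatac

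The mt-Nd3 gene (complex I) and Gm28438 differed at 1 of 345 compared bases, T3C, counted from the first base of the mitochondrial gene. The end of mt-Co1 (subunit 1 of complex IV) and Gm29216 differed at 6 of 492 compared bases, all near the outer edge of the copy: T1056A, C1057T, A1059G, A1060G, C1062A and A1066T. To put a scale on this, each mitochondrial gene was divided into all its 50-base words, and the share of words that also occur in a nuclear transcript was taken. It was 100% for mt-Co2, 99.9% for mt-Co3, 99.5% for mt-Atp6, 98.8% for mt-Nd4l and 98.0% for mt-Nd3. It was 62.2% for mt-Nd4, 51.1% for mt-Co1, 8.19% for mt-Nd2, 7.61% for mt-Nd5 and 1.04% for mt-Rnr2. It was 0% for mt-Cytb, mt-Nd1, mt-Nd6, mt-Rnr1, mt-Atp8 and every tRNA. Only annotated nuclear transcripts were searched, so these are shares of words with a known nuclear match. All but the last 43 bases of mt-Atp8, which fall in Gm10925, lie in a stretch of the copy that has no annotated gene, so its 0% does not describe that stretch. The same holds for the 5 tRNAs wholly inside the span of the copy (mt-Ts1, mt-Td, mt-Tk, mt-Tg and mt-Tr). They lie almost entirely between its annotated pseudogenes.

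A further feature of the map is that some mitochondrial genes overlap. The last 43 bases of mt-Atp8 are also the first of mt-Atp6, and the last 7 bases of mt-Nd4l are also the first of mt-Nd4. The whole of mt-Atp8 (chrM:7766-7969) and the end of mt-Nd4l (chrM:10114-10173), both on the plus strand of mm10, are shown because fragments over the shared bases, in capitals, lie over several genes.
mt-Atp8: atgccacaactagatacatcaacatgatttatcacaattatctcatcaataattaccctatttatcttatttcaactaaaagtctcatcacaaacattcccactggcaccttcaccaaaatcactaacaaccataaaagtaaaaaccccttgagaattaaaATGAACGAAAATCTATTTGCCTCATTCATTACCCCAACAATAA
mt-Nd4l: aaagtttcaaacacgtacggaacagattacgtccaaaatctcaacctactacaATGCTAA

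All mitochondrial genes together took 1.09%, 1.32%, 1.22% and 1.21% of the gene counts in replicates 1 to 4, or 1.21% ± 0.0914 (SD, n = 4). In TPM, a scale that divides each count by exon length and brings every library to the same sum, they took 2.82%, 3.41%, 3.08% and 3.06%, or 3.09% ± 0.243. The share was lowest in replicate 1 and highest in replicate 2 on both scales. These shares describe counted fragments only. Fragments that fit both a mitochondrial gene and a nuclear copy are missing from them, and how many there were was not tested. Total gene counts ran from 23000465 to 62090744 per library, a 2.70-fold range, and mitochondrial counts from 279992 to 818639. The shares of the shallower replicates 1 and 3 overlapped those of the deeper replicates 2 and 4. In bulk RNA, fewer cells of a type and less RNA per cell cannot be told apart. Since nothing in the labels says that the libraries came from separate animals, each p-value given here reflects no more than the spread of these 4 libraries, and that spread may be technical.

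The marker genes of the labelled cells were present but uneven. The 6 T cell markers had a median of 931 ± 7.36 TPM, with the T cell receptor gene Trac at 3435 ± 137 TPM, the kinase Lck at 1499 ± 36.95 TPM, the co-receptor Cd4 at 1067 ± 31.4 TPM, and Cd3e at 485 ± 20.1 and Cd3g at 431 ± 16.1 TPM as the lowest. The 6 regulatory T cell markers had a median of 8.20 ± 0.955 TPM, against 15.1 ± 0.376 TPM for all protein-coding genes with a count. Izumo1r had 167 ± 8.51 TPM and Tnfrsf18 107 ± 3.80 TPM. The defining factor Foxp3 had 8.28 ± 0.867 TPM, Ctla4 7.77 ± 0.959 TPM, Il2ra 5.52 ± 2.76 TPM and Ikzf2 1.34 ± 0.194 TPM. Cd8b1 had 40.0 ± 2.55 TPM and Cd8a 0.794 ± 0.288 TPM. The 3 macrophage markers averaged 1.78 (Lyz2), 0.278 (Csf1r) and 0.151 (Adgre1) TPM, and the 3 red cell markers 1.37 (Hbb-bs), 0.243 (Hba-a1) and 0.0915 (Alas2) TPM.

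Messages made up 98.0% ± 0.238 of the mitochondrial counts, rRNAs 1.97% ± 0.235 and tRNAs 0.0199% ± 0.00379 (SD, n = 4). Genes of the minus strand took 0.00956% ± 0.00143 of the mitochondrial counts, which was 27, 77, 22 and 85 counts in replicates 1 to 4. A single message, mt-Co1, held 53.1% ± 1.03 of all mitochondrial counts, and mt-Cytb held 17.3% ± 0.433. Next came mt-Nd5 with 9.28% ± 0.449, mt-Nd1 with 7.38% ± 0.346, mt-Nd4 with 5.90% ± 0.161 and mt-Nd2 with 5.03% ± 0.348. By complex, the 3 messages of complex IV took 54.2% ± 0.977 of the message counts, the 7 of complex I 28.2% ± 1.08, the 1 of complex III 17.6% ± 0.404 and the 2 of complex V 0.000443% ± 9.17e-05. All these shares describe counted fragments only. The messages mt-Co2, mt-Co3, mt-Nd3, mt-Nd4l, mt-Atp6 and mt-Atp8 lie inside the span of the chromosome 1 copy and held almost none.

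**Figure D1:**
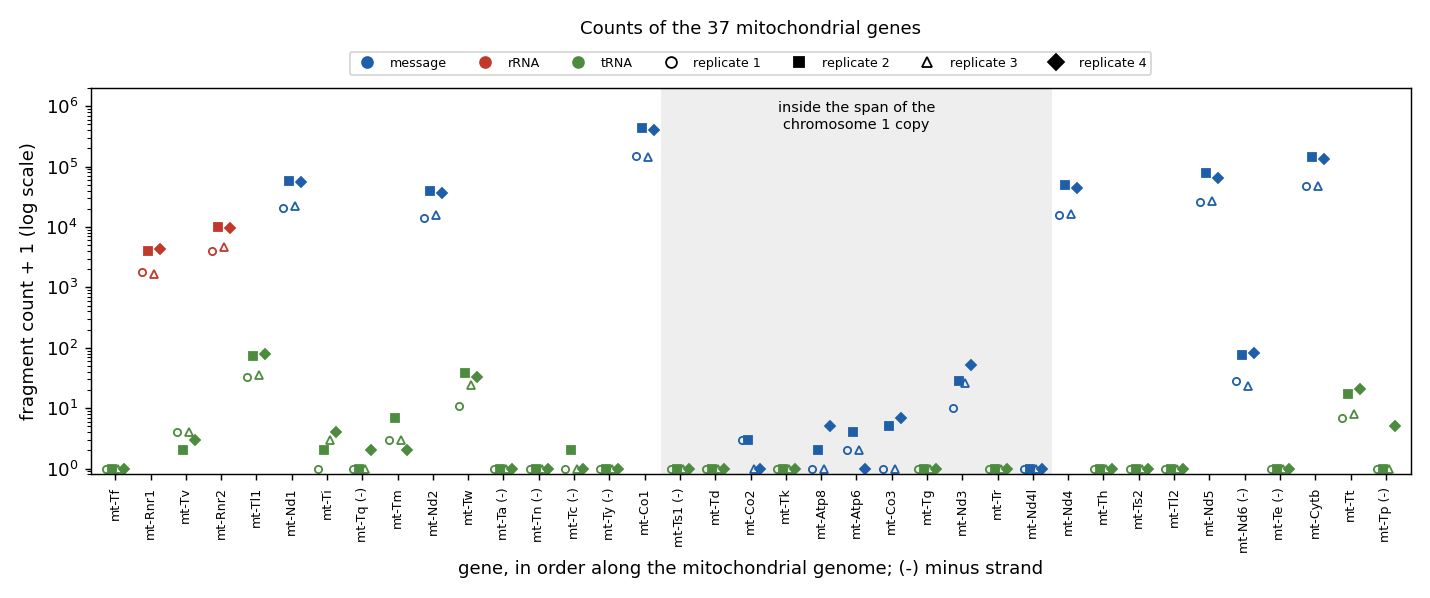
Fragment counts plus 1 (log scale) of the 37 mitochondrial genes in map order, with 1 symbol per replicate, blue for messages, red for rRNAs and green for tRNAs, and (-) marking the minus strand. The shaded genes lie wholly inside the span of the chromosome 1 copy and hold 12, 37, 26 and 61 counts in all in replicates 1 to 4, while mt-Co1 and mt-Nd4 on either side hold 15979 or more counts each in every library.

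Of the 37 mitochondrial genes, 13 (35.1%) reached 1 TPM in all 4 libraries, against 11670 of all 50600 genes (23.1%). They were 8 messages, both rRNAs and 3 tRNAs. No count at all was found for 14 genes, namely mt-Nd4l and the 13 tRNAs mt-Tf, mt-Ta, mt-Tn, mt-Ty, mt-Ts1, mt-Td, mt-Tk, mt-Tg, mt-Tr, mt-Th, mt-Ts2, mt-Tl2 and mt-Te.

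Of the 3 messages of complex IV, 1 had the highest level of all mitochondrial genes and 2 had almost no counts. The gene mt-Co1 (ENSMUSG00000064351.1) codes for the catalytic core subunit of cytochrome c oxidase, on the plus strand at mitochondrial positions 5328 to 6872. It had 13400, 16053, 14034 and 14618 TPM in replicates 1 to 4, or 14526 ± 1133 TPM (n = 4), and held rank 2 among all genes of the table in every library. The other subunits coded in mitochondria, mt-Co2 and mt-Co3, had 2, 2, 0 and 0 counts and 0, 4, 0 and 6 counts. The gap between mt-Co1 and these genes was present in all 4 libraries.

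The message of complex III, mt-Cytb (ENSMUSG00000064370.1, positions 14145 to 15288), codes for cytochrome b, which holds the sites where ubiquinol is oxidised and reduced. It had 5683, 7274, 6241 and 6388 TPM, or 6396 ± 659 TPM, and ranked 9 by mean level. No 50-base word of it was shared with a nuclear transcript. Every library gave mt-Co1 a higher TPM than mt-Cytb, by 1.19 ± 0.04 on the log2 scale (2.27-fold), and mt-Cytb a higher TPM than the next in order, mt-Nd1, by 0.97 ± 0.10 (1.96-fold). An exact two-sided sign-flip test over 4 libraries gave a p of 2 in 16 sign patterns for these steps and for all 8 neighbouring pairs of the order of levels, raw and adjusted over the 8 pairs, which is the smallest p that 4 libraries allow. The pairs were also taken from the order of mean TPM in these same libraries, so the direction tested came from the values tested. The order is therefore given as a description.

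Of the 7 messages of complex I, the NADH dehydrogenase, 4 lay close together. The membrane-arm subunit mt-Nd1 (positions 2751 to 3707) had 2993, 3401, 3423 and 3196 TPM, or 3253 ± 202 TPM. For mt-Nd5 (11742 to 13565), a proton-pumping subunit, the values were 1949, 2426, 2241 and 1993 TPM, or 2152 ± 223 TPM. For mt-Nd2 (3914 to 4951), another pumping subunit, they were 1849, 2164, 2236 and 1929 TPM, or 2045 ± 185 TPM. These 2 neighbours in the order differed by 0.07 ± 0.07 on the log2 scale and by 0.00326 in replicate 3, a difference about the size of its spread. The third pumping subunit, mt-Nd4 (10167 to 11544), had 1596, 2067, 1808 and 1784 TPM, or 1814 ± 193 TPM, and lay 0.17 ± 0.11 below mt-Nd2. The step from mt-Nd5 to mt-Nd1, 0.60 ± 0.08, was several times its spread.

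The other 3 messages of complex I had few or no counts. The only message of the minus strand, mt-Nd6 (ENSMUSG00000064368.1, 13552 to 14070), had 7.16, 8.36, 6.35 and 8.60 TPM, or 7.62 ± 1.05 TPM, from 27, 76, 22 and 80 counts. It shares no 50-base word with a nuclear transcript, and its end overlaps mt-Nd5 by 14 bases on the opposite strand, which strand-specific counting keeps apart. The gene mt-Nd3 (9459 to 9806) had 9, 27, 25 and 51 counts, or 3.56, 4.43, 10.8 and 8.18 TPM (6.73 ± 3.35). Its replicates 3 and 4 lay above replicates 1 and 2. The gene mt-Nd4l (9877 to 10173) had no count in any library, where 3 counts, the most that a count of 0 allows, would be up to 1.51 TPM in the shallowest library. Such floors cover counting error only, and not fragments left out because they also fit a nuclear copy. The share of 50-base words found in a nuclear transcript was 98.8% for mt-Nd4l and 98.0% for mt-Nd3. The level of neither gene could therefore be read from these counts.

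Both messages of complex V were almost absent from the counts. The ATP synthase subunits mt-Atp6 (7927 to 8607), which forms part of the proton channel, and mt-Atp8 (7766 to 7969) had 1, 3, 1 and 0 counts and 0, 1, 0 and 4 counts. They overlap each other and both lie inside the span of the chromosome 1 copy.

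**Figure D2:**
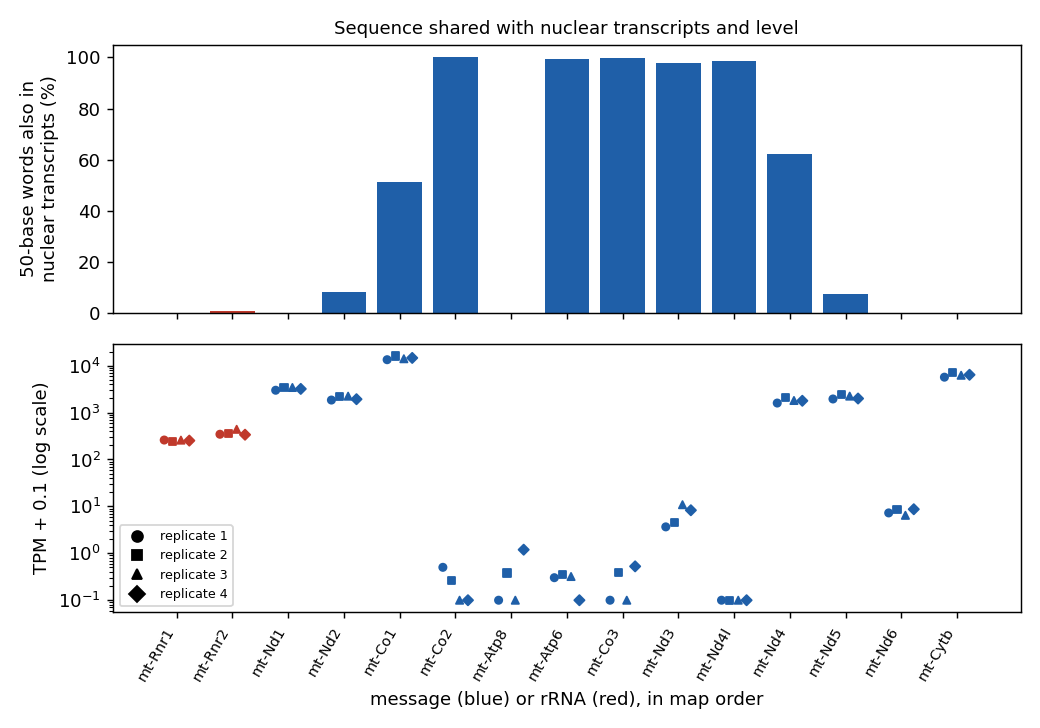
Top, share of each gene's 50-base words that also occur in a nuclear transcript (percent); bottom, TPM plus 0.1 per replicate (log scale), for the 13 messages (blue) and 2 rRNAs (red) in map order. The 5 messages with shares of 98.0% or more are all low, mt-Co1 and mt-Nd4 are high with shares of 51.1% and 62.2%, and mt-Nd6 and mt-Atp8 are low with a share of 0%.

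Inside the span of the copy, the 6 messages mt-Co2, mt-Atp8, mt-Atp6, mt-Co3, mt-Nd3 and mt-Nd4l make up 26.3% of the summed length of all 13 messages, and they held 0.00669% ± 0.00259 of the message counts. Of their 136 counts over all libraries, 112 belonged to mt-Nd3. The 5 tRNAs that lie wholly inside are mt-Ts1, mt-Td, mt-Tk, mt-Tg and mt-Tr, and none had a count. Outside the span, 9 of 17 tRNAs had a count. The chromosome 1 pseudogenes themselves held few counts: summed over the 7 copies, 56, 120, 125 and 193 in replicates 1 to 4. Among them Gm28661 had 15, 32, 34 and 53 counts, Gm10925 8, 31, 20 and 47 counts, and Gm29216 24, 22, 24 and 31 counts. More counts lay on 2 pseudogenes of chromosome 2 that share only part of their words with mitochondrial genes. Gm13340 (22588103 to 22589647, minus strand) had 71, 192, 151 and 274 counts with 27.5% of its words shared, and Gm13341 (22587291 to 22587962, minus strand) had 22, 37, 29 and 57 counts with 36.0% shared. How many fragments of each mitochondrial gene were lost to these copies was not tested, since the reads were not used here.

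For the genes that kept a stretch of unshared sequence, levels were also computed over that stretch alone, which assumes that no counted fragment came from shared bases. The other genes of the library were left as they were. On this scale mt-Co1 had 57844 ± 4512 TPM over 388 bases, and 27984 ± 2183 TPM over 802 bases when words of 100 bases were used. These 2 values differ by the word length alone. The same step gave mt-Nd4 4979 ± 531 TPM over 502 bases, mt-Nd5 2843 ± 295 over 1381 bases and mt-Nd2 2476 ± 224 over 857 bases, while mt-Cytb stayed at 6396 ± 659 and mt-Nd1 had 3260 ± 202. The gene mt-Nd4 thereby passed mt-Nd1, mt-Nd5 and mt-Nd2, and the first 2 places of the order, mt-Co1 and mt-Cytb, were held on both scales. With words of 100 bases mt-Nd4 again had 4979 TPM, mt-Nd5 2152 and mt-Nd2 2340.

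The 2 rRNAs form the core of the mitochondrial ribosome, mt-Rnr1 that of the small and mt-Rnr2 that of the large subunit. The gene mt-Rnr2 (1094 to 2675) had 345, 358, 440 and 337 TPM, or 370 ± 47.2 TPM. The gene mt-Rnr1 (70 to 1024) had 260, 243, 258 and 252 TPM, or 253 ± 7.54 TPM. The large-subunit RNA was the higher in every library, at 1.33, 1.47, 1.70 and 1.34 times the small-subunit RNA in TPM (1.46 ± 0.174). Both lay below the 6 high messages: mt-Nd4, the lowest of these, exceeded mt-Rnr2 by 2.30 ± 0.21 on the log2 scale (4.91-fold). Against the median of the 6 plus-strand messages that do not lie wholly inside the copy (mt-Co1, mt-Cytb, mt-Nd1, mt-Nd2, mt-Nd4 and mt-Nd5), the mean of the rRNAs was -3.11 ± 0.12 on the log2 scale (8.64-fold lower), in 4 of 4 libraries. The 6-message median was chosen after the values had been seen. The median over all 13 messages, used in the main ratio, turned the sign round, to 5.13 ± 0.17, because its middle member was mt-Nd6 in replicates 1, 2 and 4 and mt-Nd3 in replicate 3. The exact two-sided sign-flip test gave that smallest p, 2 in 16, for each of these ratios. Whether the library step kept the rRNAs in proportion to the messages was not tested. The rRNA genes of the nucleus held 0.000283% ± 5.46e-05 of all gene counts. Fragments with several alignments are missing from that value, so it does not measure how much nuclear rRNA the libraries held.

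The minus-strand message mt-Nd6 lay below the 6 plus-strand messages not wholly inside the copy. It was -8.43 ± 0.24 on the log2 scale against their median (344-fold lower). Against the median of all 12 plus-strand messages it was -3.79 ± 0.47. With 6 of the 12 inside the copy, that second median lies between the high messages and the nearly empty ones and describes neither. By mean TPM mt-Nd6, at 7.62, exceeded each message inside the copy, of which mt-Nd3 was the highest at 6.73. In replicate 3 mt-Nd3 was the higher. Against both medians mt-Nd6 was lower in 4 of 4 libraries, with a p of 2 in 16 by the exact sign-flip test. Whether the library step kept mt-Nd6 in proportion to the plus-strand messages was not tested. Among the rRNAs too, mt-Rnr1 exceeded mt-Nd6 by 5.05 ± 0.23.

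Transfer RNAs carry the amino acids to the mitochondrial ribosome, and their genes here measured 59 to 75 bases. The 3 with the most counts, mt-Tl1 (chrM:2676-2750), mt-Tw (chrM:4950-5016) and mt-Tt (chrM:15289-15355), held 369 of the 401 tRNA counts. They are shown whole, from the plus strand of mm10, with mt-Tf (chrM:1-68), the first gene of the map, which had none.
mt-Tl1: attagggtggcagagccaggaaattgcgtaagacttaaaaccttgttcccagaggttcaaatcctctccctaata
mt-Tw: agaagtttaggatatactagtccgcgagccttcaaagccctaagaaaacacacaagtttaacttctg
mt-Tt: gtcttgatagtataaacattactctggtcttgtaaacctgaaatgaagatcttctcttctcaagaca
mt-Tf: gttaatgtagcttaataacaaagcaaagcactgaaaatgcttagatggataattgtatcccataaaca

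The leucine tRNA mt-Tl1 lies with no gap between mt-Rnr2 and mt-Nd1 and had 32, 73, 34 and 79 counts, or 60.2 ± 5.34 TPM. The tryptophan tRNA mt-Tw overlaps the end of mt-Nd2 by 2 bases and has 311 bases before the next plus-strand gene. It had 10, 37, 23 and 32 counts, or 32.5 ± 13.4 TPM, with replicate 3 at 51.4 TPM and replicate 1 at 20.5 TPM. The threonine tRNA mt-Tt follows mt-Cytb with no gap and is the last plus-strand gene of the map. It had 6, 16, 7 and 20 counts, or 14.6 ± 1.95 TPM.

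Few counts lay on the other tRNAs. Over all libraries mt-Tm (methionine) had 11 counts, mt-Tv (valine) 9, mt-Ti (isoleucine) 6 and mt-Tp (proline) 4, all 4 in replicate 4, while mt-Tq (glutamine) and mt-Tc (cysteine) had 1 each. Of the 8 minus-strand tRNAs, 5 had no count, and all 8 together had 0, 1, 0 and 5 counts in replicates 1 to 4. The 14 plus-strand tRNAs together had 53, 134, 71 and 137 counts, and 8 of them had none. With 18 of 22 tRNAs under 10 counts over all libraries, tRNA levels and their order could not be read from these counts. Whether the library step kept RNAs this short was not tested. A fragment that runs from a tRNA into its neighbour lies over several genes and was left out of the counts, so the tRNA values do not describe precursors.

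Messages of the mitochondrial genome were set beside their nuclear-coded partners in the same enzymes. Each of the 6 plus-strand messages not wholly inside the copy exceeded all 40 nuclear-coded respiratory chain subunits of a partial list by mean TPM. Their median was 2703 ± 206 TPM, against 128 ± 7.10 TPM for the 40 nuclear-coded subunits, a log2 difference of 4.36 ± 0.19 (20.6-fold), higher in 4 of 4 libraries. Over all 13 messages, as in the main ratio, the difference was -3.88 ± 0.27, the 6 genes inside the copy being included. The exact sign-flip p was 2 in 16 for both. The highest listed subunits were Atp5a1 at 677 ± 24.8 TPM, Cox8a at 608 ± 46.7 TPM and Atp5b at 562 ± 13.5 TPM. The lowest listed were Ndufb8 at 37.5 ± 1.80 TPM and Ndufs1 at 35.4 ± 3.46 TPM. Of the 40, 5 lay above mt-Rnr2, 9 above mt-Rnr1 and all 40 above mt-Nd6. The length behind each TPM covers all annotated exons of a gene together, such as 3567 bases for Cox6c and 3146 for Ndufb8. For a nuclear gene it can exceed the length of the message, which lowers TPM. Each mitochondrial gene has a single transcript as long as the gene. How much this adds to the differences was not tested.

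Within complexes, again over the listed nuclear-coded subunits alone, the gap was widest for complex IV. The level of mt-Co1 exceeded the median of 9 nuclear-coded subunits of complex IV, 142 ± 9.44 TPM, by 6.67 ± 0.09 on the log2 scale (102-fold). In complex III, mt-Cytb exceeded the median of 6 nuclear-coded subunits, 175 ± 2.25 TPM, by 5.19 ± 0.14 (36.4-fold). In complex I, the median of mt-Nd1, mt-Nd2, mt-Nd4 and mt-Nd5 exceeded that of 12 nuclear-coded subunits, 91.8 ± 4.18 TPM, by 4.52 ± 0.08 (22.9-fold). All 3 differences held in 4 of 4 libraries with an exact sign-flip p of 2 in 16, raw and adjusted over the 3, and they were set up after the data had been seen. The limit on exon length holds for them too. For complex V, whose 9 listed nuclear-coded subunits had a median of 182 ± 9.78 TPM, both mitochondrial messages lie inside the copy and no level could be read. Complex II has no mitochondrial message, and its 4 subunits had a median of 127 ± 2.37 TPM.

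**Figure D3:**
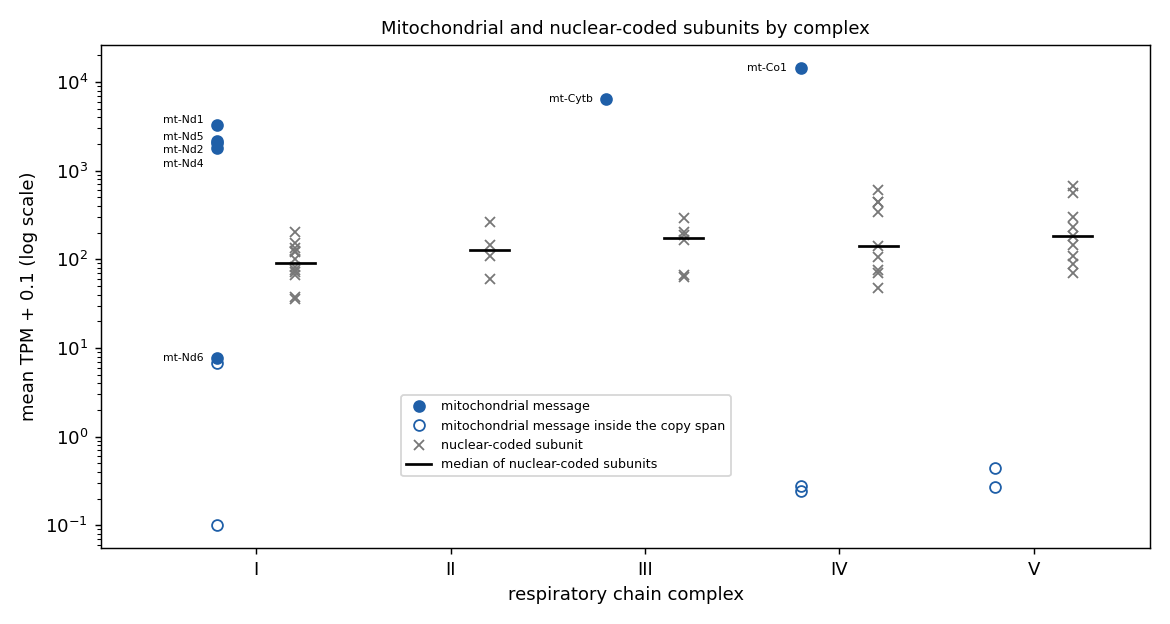
Mean TPM plus 0.1 over 4 libraries (log scale) of respiratory chain subunits by complex, with mitochondrial messages as circles on the left of each pair, open where they lie inside the span of the chromosome 1 copy, and the 40 listed nuclear-coded subunits as crosses with their median as a bar. The filled circles other than mt-Nd6 lie above every cross, and mt-Nd6 at 7.62 TPM lies below every cross.

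The nuclear genes that serve the mitochondrial genome, in 3 lists, lay between 4.54 and 118 TPM by mean level. All 18 genes of transcription and replication of mitochondrial DNA reached 1 TPM in every library, with a median of 17.01 ± 1.54 TPM. The replicating polymerase Polg had 103 ± 5.31 TPM, the RNA polymerase Polrmt 70.7 ± 7.51 TPM and the primer-removing nuclease Rnaseh1 49.96 ± 1.39 TPM, while the exonuclease Mgme1 had 5.72 ± 0.783 TPM and the termination factor Mterf1a 4.97 ± 1.19 TPM. All 23 genes of transcript processing reached 1 TPM too, with a median of 28.2 ± 2.00 TPM. The RNase P subunit Hsd17b10 had 118 ± 9.24 TPM, and the FASTK family members Fastk and Tbrg4 had 86.5 ± 3.98 and 83.7 ± 4.44 TPM. The lowest were the methyltransferase Trmt61b at 4.81 ± 0.223 TPM and 1110008L16Rik at 4.54 ± 0.571 TPM. Of 11 genes of transcript stability and decay, all reached 1 TPM, with a median of 41.6 ± 2.33 TPM. The rRNA chaperone Eral1 had 61.4 ± 3.04 TPM, the helicase Dhx30 59.5 ± 1.29 TPM and the oligonuclease Rexo2 56.1 ± 6.15 TPM, against 16.3 ± 2.47 TPM for Ddx28 and 8.06 ± 0.210 TPM for the RNA-binding protein Slirp, which shares 93.7% of its words with other genes. For scale, 14116 protein-coding genes with a count had a median of 15.1 ± 0.376 TPM.

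The 4 libraries were then compared with each other. Variability was tested for every gene with enough counts by the residual deviance of an edgeR fit with 1 mean for all libraries, with Benjamini-Hochberg adjustment over 12554 genes. None of the 13 mitochondrial genes tested passed an adjusted p of 0.05, where 142 of all genes tested did (1.13%). At an unadjusted p of 0.05, 2 of the 13 passed, beside 657 of all genes tested (5.23%). The same step with the size factors and dispersion trend of DESeq2 called 0 of the 13, beside 119 of all genes (0.948%), and at an unadjusted p of 0.05 it passed 4, beside 576 of all genes (4.59%). The other mitochondrial genes had too few counts to be tested. The median range over libraries was 0.331 on the log2 scale for the 13 mitochondrial genes, 0.184 for the nuclear-coded subunits and 0.243 for all genes tested. None of the 40 subunits, nor any of the transcription, processing or decay genes, passed the same test.

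The 2 genes at an unadjusted p of 0.05 were mt-Rnr2 and mt-Nd3. In replicate 3, mt-Rnr2 lay 0.27 above its mean on the log2 scale, and the other libraries lay between -0.10 and -0.07. Its edgeR p was 0.0268 and its adjusted p 0.707. For mt-Nd3 the range was 1.55 on the log2 scale from libraries with 9 to 51 counts, lowest in replicate 1 and highest in replicate 3. Its edgeR p was 0.0376 and its adjusted p 0.837. The 6 high messages each had their lowest value in replicate 1, at -0.12 for mt-Co1, -0.17 for mt-Cytb, -0.12 for mt-Nd1, -0.14 for mt-Nd5, -0.15 for mt-Nd2 and -0.18 for mt-Nd4 from each gene's mean. So did mt-Nd3 at -0.75, mt-Tw at -0.56, mt-Tt at -0.22 and mt-Rnr2 at -0.10, the last beside -0.10 in replicate 4. The other 3 genes tested, mt-Rnr1 at 0.03, mt-Nd6 at -0.08 and mt-Tl1 at -0.04, had their lowest value in another library. Replicate 1 was also the highest and replicate 4 the lowest library for the B cell markers Cd79a, at 13.5, 9.20, 7.61 and 4.10 TPM in replicates 1 to 4, Ms4a1, at 2.02, 1.07, 1.67 and 0.478 TPM, and Pax5, at 1.68, 1.05, 1.02 and 0.372 TPM. These 3 genes passed the variability test, as did the regulatory T cell marker Il2ra, highest in replicate 3. Their part in the mitochondrial values was not tested.

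**Figure D4:**
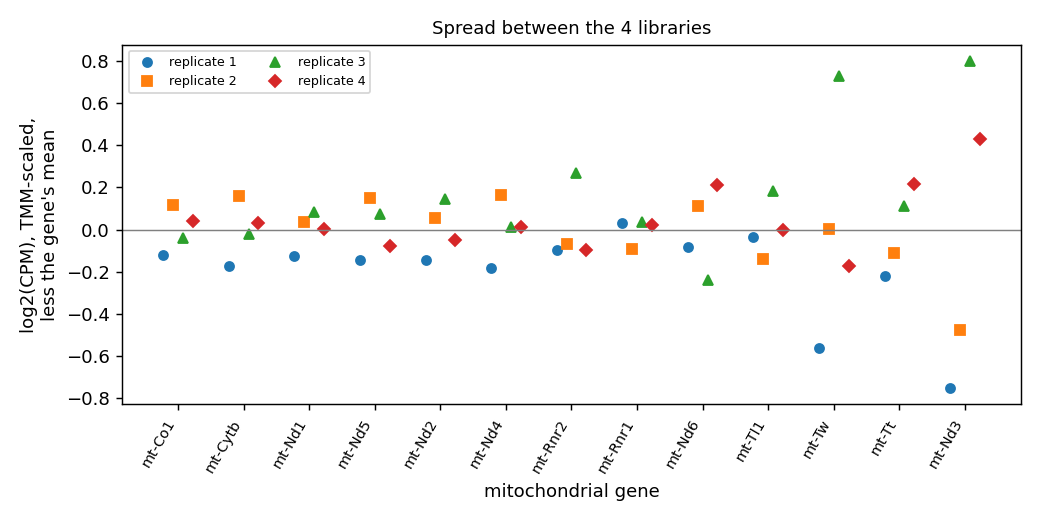
Deviation of each of the 13 tested mitochondrial genes from its own mean (log2 of TMM-scaled CPM) in the 4 libraries, 1 symbol per replicate. Replicate 1 is the lowest point for all 6 high messages, by 0.12 to 0.18, and the widest ranges are those of mt-Nd3 (1.55) and mt-Tw (1.29).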

How the data were processed

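The authors deposited raw counts of fragments for each gene, made, per the file headers, with featureCounts 1.4.6-p4 from paired-end alignments named for STAR, over exons of GENCODE M13 genes, with both ends aligned and strand setting 2 (reverse-stranded). The recorded command, per the file headers, sets neither -M nor -O, so fragments that align in several places or touch several genes are not counted. The library label (total RNA) and the title of the cited library protocol (poly(A)+) differ. The sources used here do not give the read length.

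From the deposited counts, TPM was computed with the exon lengths of the same files, and ratios used log2(TPM+0.1). Symbols, strands and transcript sequences were taken from GENCODE M21 (also mm10), for 50376 of 50600 genes (99.6%), with coordinates 1-based. No genome sequence was used, so nuclear copies were searched among annotated nuclear transcripts, on both strands, in place of the nuclear genome. All 4 libraries form 1 group. Ratios were tested over libraries by exact sign flips (two-sided), adjusted by the Benjamini-Hochberg method. Variability used edgeR 4.0.16 (R 4.3.3) on genes kept by filterByExpr. After TMM scaling, glmFit fitted 1 mean per gene at the dispersion trend. The residual deviance was referred to a chi-square distribution with 3 degrees of freedom. DESeq2 1.42.0 gave an alternative. Other values used Python 3.11.15, numpy 2.4.6, pandas 2.3.3, scipy 1.17.1 and matplotlib 3.10.9. Depth was 23000465 to 62090744 counts per library. For genes without counts, 3 counts served as the floor.

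The genes, lists and tests were chosen with earlier results of these data known. Named genes are all mitochondrial genes, the 3 highest and 2 lowest of each nuclear list by mean TPM, any list member called variable and the 5 nuclear copies with the most counts. Other copies and list members were named after their values were seen. The processing list also held 1110008L16Rik under its other name Prorp, which had no match. A listed gene that these rules include is not reported here.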

Additional observations from a re-analysis of the deposited data

How the results depend on the processing

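No paired analysis was possible because the libraries form 1 group. Of 56 values of the main results under alternatives, 3 reversed and the other 53 did not. Many of the 53 could not have reversed. Shares and gene counts have no sign to turn. Ratios without a library kept theirs because all 4 libraries had the same sign. The log2 ratio of rRNAs to messages turned to -3.28 over unshared lengths and to -3.11 with the 6 plus-strand messages not wholly inside the copy. The ratio of messages to nuclear-coded subunits turned to 4.36 with those 6. These 6 were chosen after seeing the data, as were words of 100 bases and the complexes. The ratio of mt-Nd6 to plus-strand messages ran from -8.73 over unshared lengths to -2.20 for the mean of logs. Over unshared lengths the rRNA and mt-Nd6 ratios leave out messages with under 50 unshared bases (mt-Co2, mt-Co3, mt-Atp6, mt-Nd3 and mt-Nd4l). These 2 alternatives therefore change the set of messages as well as the length. Leaving out each replicate gave 1.17% to 1.25% for the share of counts, 2.99% to 3.19% for the share of TPM, -3.92 to -3.57 for mt-Nd6, 5.05 to 5.19 for rRNAs, -3.98 to -3.76 for messages against nuclear subunits and 13 to 14 genes at 1 TPM. The number at 0.1 TPM was 15, at 5 TPM 12, and 11 had 10 counts in every library. No mitochondrial gene was called variable by edgeR or DESeq2 under any alternative run, while calls among all genes ran from 60 to 352 (main 142). Without a filter edgeR called 88, with a common dispersion 352, at an adjusted p of 0.01 74, and without replicates 1 to 4 in turn 64, 85, 84 and 60. Among levels relative to mt-Nd1, mt-Nd4 turned to 0.61 over unshared lengths with words of either 50 or 100 bases, and mt-Nd5 turned to 0.33 in CPM, where length is not corrected. Another 11 of these levels moved beyond their spread and 42 did not. The 42 include 32 values from leaving out a library. Those could not move so far, because leaving out 1 of 4 libraries always shifts a mean by less than the SD. All 21 alternatives for complexes I, III and IV kept their sign. Those that leave out a library had to, because all 4 libraries had the same sign. Few counts limit mt-Nd3 and the tRNAs above all, and with 4 libraries the sign-flip test could not go below 2 in 16.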
